A study of Mus musculus with 6 samples.

Results

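The genes described here are 7 markers of the sensory neurons that carry itch and make the peptides Nppb and Sst: the peptide genes Nppb and Sst, the cytokine receptor genes Il31ra and Osmr, and the receptor genes Cysltr2, Hrh1 and Lpar5. They were chosen by name, as known markers of these neurons, but with earlier results of these data known. All 7 were found by symbol among the 36793 gene identifiers of the deposited table. All 7 also passed the filter on low counts and were among the 16810 genes tested. RNA came from lumbar dorsal root ganglia, which hold the cell bodies of sensory neurons and their glia, of mice labelled NMDA receptor knockout (3 libraries, mice 4 to 6) and wild type (3 libraries, mice 1 to 3). By its title the series concerns loss of GluN1, the NMDA receptor subunit encoded by Grin1, from Schwann cells, so the neurons that express the 7 genes are not the cells it names. The sources used here do not give the driver of the deletion or the sex, age and strain of the mice.

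Itch from the skin is carried to the spinal cord by small sensory neurons whose cell bodies lie in the dorsal root ganglia. In the mouse, one class of these neurons releases natriuretic polypeptide B, encoded by Nppb, onto spinal neurons that bear its receptor, and it also makes somatostatin. The same class carries the heteromeric receptor for the T-cell cytokine interleukin 31, which is built from the Il31ra and Osmr proteins, and G protein-coupled receptors for lipid and amine mediators of skin inflammation.

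The stretches upstream of the starts of the peptide genes and of the genes for the cytokine receptor chains are shown because these members form the ligand side and the receptor side of this neuron class. Each run holds the 250 bases before the gene's RefSeq start, 5′ to 3′ on the gene's strand (RefSeq, GRCm38.p6). Capitals mark matches, on either strand, to 6 motifs: TGACGTCA for the cyclic AMP response element, TGACTCA for AP-1, TGTGGT for Runx factors, TATAAA for the TATA box, TTCNNNGAA for STAT factors and AGATAA for GATA factors. No matches overlapped in the 4 runs.
Nppb: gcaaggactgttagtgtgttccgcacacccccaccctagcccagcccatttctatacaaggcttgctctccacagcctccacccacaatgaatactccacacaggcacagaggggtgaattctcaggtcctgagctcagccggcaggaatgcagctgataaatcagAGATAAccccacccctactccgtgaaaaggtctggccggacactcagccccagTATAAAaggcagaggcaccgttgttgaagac
Sst: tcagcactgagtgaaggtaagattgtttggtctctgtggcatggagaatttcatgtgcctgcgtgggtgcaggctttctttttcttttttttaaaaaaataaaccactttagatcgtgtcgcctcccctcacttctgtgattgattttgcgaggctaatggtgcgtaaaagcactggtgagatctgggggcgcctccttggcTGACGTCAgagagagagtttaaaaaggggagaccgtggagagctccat
Il31ra: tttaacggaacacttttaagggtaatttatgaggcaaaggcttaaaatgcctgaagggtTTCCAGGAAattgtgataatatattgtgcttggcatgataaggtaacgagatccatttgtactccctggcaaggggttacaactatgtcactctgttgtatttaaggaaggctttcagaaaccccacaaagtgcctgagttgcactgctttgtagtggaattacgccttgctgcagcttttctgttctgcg
Osmr: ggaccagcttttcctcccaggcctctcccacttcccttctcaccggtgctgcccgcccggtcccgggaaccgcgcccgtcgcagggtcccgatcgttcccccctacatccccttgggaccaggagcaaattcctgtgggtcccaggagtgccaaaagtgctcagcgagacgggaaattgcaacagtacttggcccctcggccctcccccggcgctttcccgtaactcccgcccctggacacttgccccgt
The runs lie at chr4:147985650-147985899 on the plus strand for Nppb and, on the minus strand, at chr16:23890845-23891094 for Sst, chr13:112580663-112580912 for Il31ra and chr15:6874314-6874563 for Osmr. The Nppb run held a TATA box that began 31 bases before the start and a GATA motif that began 84 bases before it. These motifs stood in 12.4% and 9.99% of the 32851 RefSeq windows of the same length. The Sst run held the cyclic AMP response element from 48 to 41 bases before the start, a motif found in 1.55% of windows. The Il31ra run held 1 STAT motif, found in 7.02% of windows, and its RefSeq start lies 13698 bases downstream of the GENCODE start of the gene. For Nppb, Sst and Osmr the RefSeq start lies 112, 114 and 656 bases downstream of the GENCODE start. All 4 runs therefore overlap the GENCODE spans given below, and those of Il31ra and Osmr lie wholly inside them. The Osmr run held none of the 6 motifs and was 66.0% G and C with 18 CpG, against 42.0% and 4 CpG for Il31ra and medians of 52.4% and 6 CpG over all windows. The Cysltr2 window also held none of the 6 motifs.

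Grin1, the targeted gene, was at 46.2, 65.8 and 69.7 TPM in knockout libraries 4, 5 and 6, against 38.8, 63.7 and 42.6 TPM in wild-type libraries 1, 2 and 3. The groups overlapped and the knockout libraries were not lower, in a tissue whose neurons also express the gene. The 6 libraries held 28526704 to 36249163 expected counts. Knockout libraries 5 and 6 agreed within sampling noise: 0 of 10258 genes differed between them at a false discovery rate of 0.05, at a mean chi-square of 1.15, against 13.3 to 104 in the other 14 pairs. They were therefore counted as 1 sample, so n = 2 for knockout and n = 3 for wild type. Some libraries lay nearer to a library of the other genotype than to their own. Knockout 4 was nearest to wild type 3 (17.4), and wild type 2 was nearest to knockout 6 (28.1). The labels list the cells as Schwann cells, while the libraries carried high levels of neuronal genes: the summed level of 10 pan-neuronal markers was 11380 to 13200 TPM in knockout and 10120 to 12810 TPM in wild type. The sum over 10 Schwann cell markers was 7463 to 7729 TPM in knockout and 5939 to 6767 TPM in wild type, so the libraries stand for the whole ganglion. TPM, a unit scaled to library size and transcript length, is used wherever levels of different genes are compared.

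Knockout was compared with wild type to ask how the deletion bears on gene expression in the ganglion. None of the 7 itch neuron genes passed at a Benjamini-Hochberg adjusted p of 0.05 over all genes (edgeR quasi-likelihood test, adjusted p from 0.279 for Nppb to 0.918 for Hrh1), a threshold that 0.0952% of genes passed. At an unadjusted p under 0.05, 3 of the 7 were lower in knockout, Nppb, Cysltr2 and Il31ra, where 9.16% of all genes tested reached that level and 4.0% were lower. For 4 of the 7, these 3 and Osmr, every knockout library was below every wild-type library in CPM (counts scaled to library size). That held for 14.1% of all genes over 6 libraries and for 15.7% over the 5 samples. In TPM the groups overlapped for Osmr. The fitted difference was negative for 6 of the 7, against 49.8% of all genes. Because the 7 were chosen with earlier results of these data known, these counts are a description and not an independent test. The median log2 fold change was -0.32 over the 7 and 0.001 over all genes, and it was -0.65 over the 7 without knockout 5 and 6. DESeq2 on the same 5 samples called 1 member, Nppb, and 0.985% of 25068 genes, a wider set without the filter on low counts. DESeq2 on the 6 libraries, with knockout 5 and 6 counted separately, called 2 members, Nppb and Cysltr2, and 3.41% of 25066 genes. Limma-voom called 0 members and 0.161% of 16810 filtered genes.

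**Figure D1:**
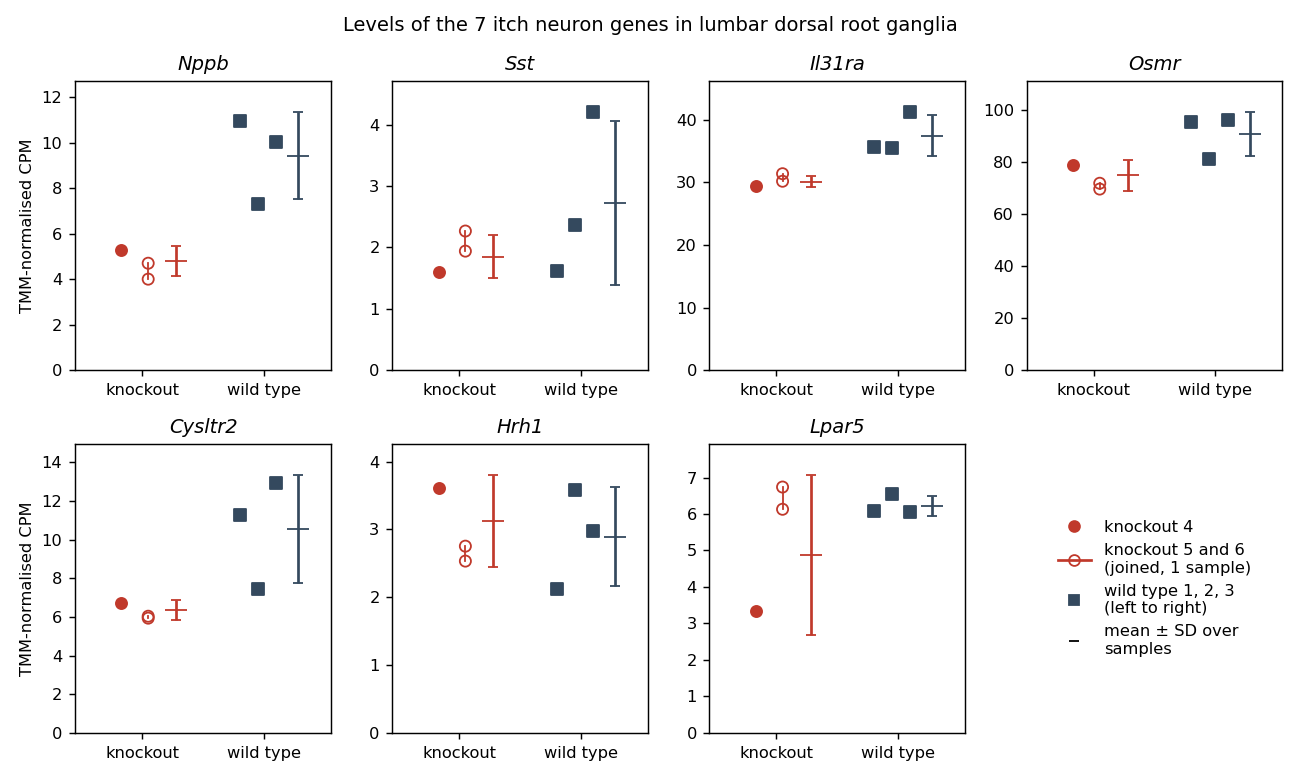
Level of each of the 7 genes in TMM-normalised CPM (counts scaled to library size, y axis, linear from 0) in knockout (left, red; libraries 5 and 6 are open and joined as 1 sample) and wild-type libraries (right, dark squares), with mean ± SD over samples. Nppb, Il31ra, Osmr and Cysltr2 do not overlap between the groups, whereas Sst, Hrh1 and Lpar5 do.

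Nppb (ENSMUSG00000029019, chromosome 4, 147985788 to 147987205, GRCm38, plus strand, 3 exons) encodes the precursor of the itch neuropeptide natriuretic polypeptide B. Its level was 5.27, 4.70 and 4.00 CPM in knockout libraries 4, 5 and 6, against 11.0, 7.29 and 10.1 CPM in wild-type libraries 1, 2 and 3. The highest knockout library was below the lowest wild-type library, wild type 2. Nppb averaged 4.81 ± 0.651 CPM in knockout (SD, n = 2) and 9.44 ± 1.91 CPM in wild type (SD, n = 3). The fitted knockout level was 51.0% of wild type, a log2 fold change of -0.97 with a standard error of 0.21 (edgeR adjusted p = 0.279, unadjusted p = 0.00314). In DESeq2 the adjusted p was 0.0215 at a log2 fold change of -0.96, so the call for Nppb differs between tools. The counts behind these levels were 128 to 164 in knockout and 232 to 366 in wild type, and the wild-type coefficient of variation of 20.3% compares with 5.80% from counting alone.

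Each knockout sample was also set against the wild-type libraries most similar to it over all genes. The groups did not overlap for Nppb, so a lower value was fixed in advance and only the size is informative. Knockout libraries 5 and 6 together differed by -0.74 on the log2 scale from wild type 2, the wild-type library nearest to them. Knockout 4 differed by -0.99 from the mean of wild type 1 and wild type 3. In a bulk ganglion fewer cells of a type and less RNA per cell cannot be told apart, and this holds for every member.

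Sst (ENSMUSG00000004366, chromosome 16, 23889573 to 23890958, minus strand, 2 exons) encodes somatostatin, an inhibitory peptide made by the same neuron class. Its level was 1.60, 2.27 and 1.94 CPM in knockout libraries 4, 5 and 6, against 1.62, 2.36 and 4.20 CPM in wild-type libraries 1, 2 and 3. The groups overlapped, and only wild type 3 stood above all other libraries. Sst had a log2 fold change of -0.53 ± 0.42 (standard error; edgeR adjusted p = 0.707), and of -0.08 without wild type 3. Sst had 47 to 123 counts per library, and its wild-type coefficient of variation was 48.8% where counting alone gives 10.9%. The level of Nppb relative to Sst in TPM was 2.45, 1.54 and 1.53 in knockout libraries 4, 5 and 6, against 5.03, 2.30 and 1.78 in wild-type libraries 1, 2 and 3, with overlap between the groups.

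Il31ra (ENSMUSG00000050377, chromosome 13, 112519898 to 112594360, minus strand) encodes the ligand-binding chain of the interleukin 31 receptor. Its level was 29.5, 30.2 and 31.4 CPM in knockout libraries 4, 5 and 6, against 35.6, 35.4 and 41.2 CPM in wild-type libraries 1, 2 and 3. The groups were narrow and did not overlap. Il31ra averaged 30.1 ± 0.921 CPM in knockout (SD, n = 2) and 37.4 ± 3.30 CPM in wild type (SD, n = 3), and the log2 fold change of -0.31 had a standard error of 0.12 (edgeR adjusted p = 0.522, unadjusted p = 0.0396).

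Osmr (ENSMUSG00000022146, chromosome 15, 6813577 to 6874969, minus strand) encodes the oncostatin M receptor chain, which pairs with Il31ra and, for oncostatin M, with the shared chain gp130. Fibroblasts, endothelium and other cells are also known to express it, and the cells that contributed its counts here cannot be told apart in a whole ganglion. Osmr was at 79.1, 72.0 and 69.7 CPM in knockout libraries 4, 5 and 6, against 95.4, 81.3 and 96.3 CPM in wild-type libraries 1, 2 and 3. The groups did not overlap in CPM, although knockout 4 and wild type 2 lay close together. In TPM they overlapped, with knockout 4 at 33.95 and wild type 2 at 32.87. The fitted log2 difference was -0.28 ± 0.12 (standard error; edgeR adjusted p = 0.567).

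The ratio of Osmr to Il31ra in TPM was 1.97, 1.71 and 1.56 in knockout libraries 4, 5 and 6, against 1.94, 1.57 and 1.66 in wild-type libraries 1, 2 and 3. The groups overlapped in this ratio over almost their whole range. The ratio of Nppb to Il31ra was 0.909, 0.792 and 0.648 in knockout libraries 4, 5 and 6, against 1.56, 1.05 and 1.24 in wild-type libraries 1, 2 and 3. Here the groups did not overlap. Scn10a is a sodium channel gene of small-diameter nociceptors. Set against it, Nppb stood at 5.16, 3.86 and 3.29 TPM per 100 TPM in knockout libraries 4, 5 and 6. In wild-type libraries 1, 2 and 3 Nppb stood at 11.3, 5.60 and 8.36, again with no overlap. That separation depended on the nociceptor marker chosen. Relative to Scn11a, Runx1 or Ret, Nppb in knockout 4 was above wild type 2, so the groups overlapped. Relative to the other nociceptor markers listed below they did not overlap. Cysltr2 was at 2.77, 2.06 and 2.10 TPM per 100 TPM of Scn10a in knockout libraries 4, 5 and 6, against 4.92, 2.41 and 4.53 in wild-type libraries 1, 2 and 3. On this scale knockout 4 was above wild type 2, so the groups overlapped for Cysltr2, as they did for it relative to Il31ra. Relative to Scn10a, Osmr and Il31ra also overlapped between the groups, with Il31ra at 4.87 to 5.67 in knockout and 5.35 to 7.24 in wild type.

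**Figure D2:**
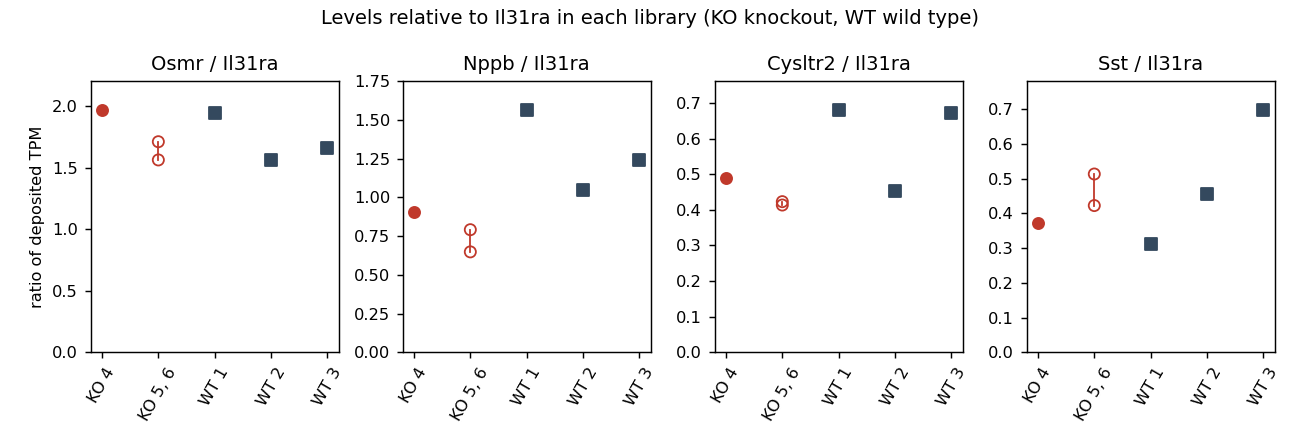
Ratio of the deposited TPM of Osmr, Nppb, Cysltr2 and Sst to that of Il31ra in each library (y axis, linear from 0), with knockout libraries (red) left of wild-type libraries (dark squares). For Nppb the knockout libraries lie between 0.648 and 0.909 and the wild-type libraries between 1.05 and 1.56, while for Osmr, Cysltr2 and Sst the groups overlap.

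Cysltr2 (ENSMUSG00000033470, chromosome 14, 73025603 to 73049114, minus strand) encodes a receptor for cysteinyl leukotrienes, lipid mediators released by immune cells. Its level was 6.70, 5.94 and 6.04 CPM in knockout libraries 4, 5 and 6, against 11.3, 7.45 and 12.9 CPM in wild-type libraries 1, 2 and 3. The groups did not overlap, and wild type 2 lay closest to the knockout libraries. It did so for Nppb and Osmr too and, by a narrow margin over wild type 1, for Il31ra. Cysltr2 averaged 6.35 ± 0.507 CPM in knockout (SD, n = 2) and 10.6 ± 2.81 CPM in wild type (SD, n = 3). The fitted knockout level was 60.2% of wild type, a log2 fold change of -0.73 with a standard error of 0.24 (edgeR adjusted p = 0.464, unadjusted p = 0.0212). The difference was -0.32 on the log2 scale between knockout 5 and 6 and wild type 2, and -0.85 between knockout 4 and the mean of wild type 1 and 3.

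Hrh1 (ENSMUSG00000053004, chromosome 6, 114397936 to 114483296, plus strand) encodes the histamine H1 receptor. It was the lowest of the 7 genes per length, in TPM. In CPM it was at 3.61, 2.75 and 2.53 CPM in knockout libraries 4, 5 and 6, against 2.13, 3.58 and 2.97 CPM in wild-type libraries 1, 2 and 3. The groups overlapped throughout. The log2 fold change of 0.10 had a standard error of 0.28 (edgeR adjusted p = 0.918), and its sign turned to -0.12 without knockout 4 and to -0.06 without wild type 1.

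Lpar5 (ENSMUSG00000067714, chromosome 6, 125067920 to 125082472, plus strand) encodes a receptor for lysophosphatidic acid, a lipid that evokes itch. It was at 3.34, 6.74 and 6.13 CPM in knockout libraries 4, 5 and 6, against 6.08, 6.54 and 6.05 CPM in wild-type libraries 1, 2 and 3. Knockout 4 was the only library to stand apart, while the other 5 lay within 6.05 to 6.74 CPM. The log2 fold change of -0.32 with a standard error of 0.27 (edgeR adjusted p = 0.726) was -0.90 without knockout 5 and 6 and 0.06 without knockout 4, so knockout 4 set its direction. Among the 35243 genes with a position, no other overlapped any of the 7.

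**Figure D3:**
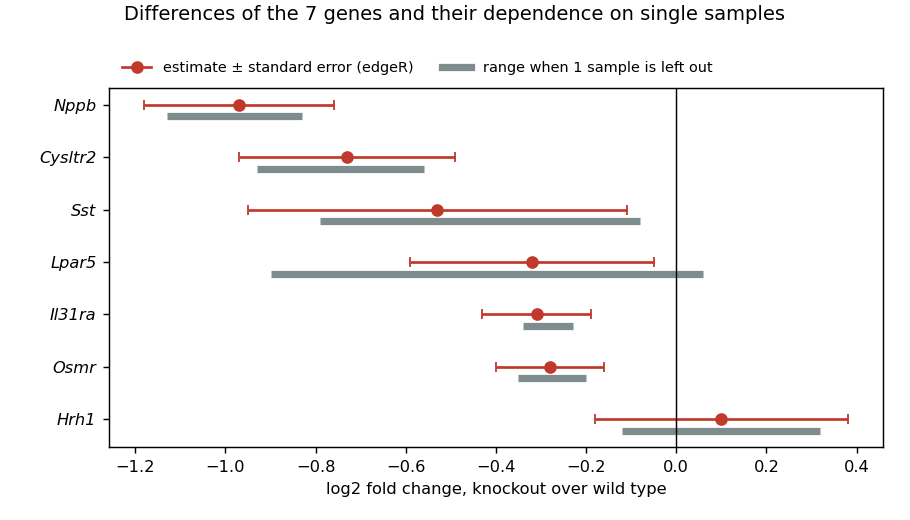
Log2 fold change of knockout over wild type for each gene (red points, ± standard error from edgeR) with the range of values when 1 sample is left out (grey bars). The bars of Nppb, Cysltr2, Il31ra and Osmr stay below 0, that of Sst reaches -0.08, and those of Lpar5 and Hrh1 cross 0.

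In order of level per length, wild type averaged 38.7 TPM for Osmr, 28.8 for Nppb, 22.5 for Il31ra, 13.6 for Cysltr2, 11.2 for Sst, 10.2 for Lpar5 and 2.33 for Hrh1. In knockout the averages were 32.4 TPM for Osmr, 14.6 for Nppb, 18.1 for Il31ra, 8.16 for Cysltr2, 7.62 for Sst, 8.30 for Lpar5 and 2.62 for Hrh1. Nppb therefore stood below Il31ra in 3 of 3 knockout libraries and above it in 3 of 3 wild-type libraries. In wild type the ranges of Osmr and Nppb overlapped, as did those of Nppb and Il31ra. In both groups the ranges of Cysltr2 and Sst and of Sst and Lpar5 overlapped, whereas Hrh1 lay below Lpar5 in every library.

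The other genes of the members' pathways were counted in lists, and none of their members passed the test over all genes in either direction. In the natriuretic peptide list 7 of 9 genes were tested, 5 positive and 2 negative, with a median log2 fold change of 0.11 that turned to -0.10 without knockout 5 and 6 and was 0.26 without knockout 4. The receptor for the Nppb peptide, Npr1, was at 2.22 to 3.20 TPM in knockout and 1.60 to 3.99 TPM in wild type. Corin, a protease that cleaves the related precursor of atrial natriuretic peptide, had a log2 fold change of 0.81 with a standard error of 0.32 and was at 0.600 to 0.680 TPM in knockout against 0.250 to 0.460 TPM in wild type (edgeR adjusted p = 0.531, with overlap in CPM between the 6 libraries). On the same log2 scale, Npr3, the clearance receptor, was at -0.30 and Furin, a proprotein convertase, at 0.25, or at -0.10 without knockout 5 and 6.

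In the somatostatin list 7 of 9 genes were tested, 2 positive and 5 negative, with a median of -0.06 that was 0.06 without knockout 4 and -0.16 without knockout 5 and 6. Among the receptors Sstr2 was at -0.19, with 5.39 to 5.82 TPM in knockout and 5.78 to 6.94 TPM in wild type, and Sstr4 at -0.44, or at -0.08 without wild type 3. Cpe, the carboxypeptidase that trims neuropeptide precursors, was at -0.20, and between -0.36 and -0.05 with 1 sample left out. Cort, the gene of the related peptide cortistatin, and Sstr5 were too low to be tested.

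In the list of interleukin 31 and oncostatin M signalling 14 of 15 genes were tested, 11 positive and 3 negative, with a median of 0.09, or 0.18 without knockout 4. Il31 itself had 0 counts in all 6 libraries. Il6st, which encodes gp130, was at 174 to 198 TPM in knockout and 152 to 210 TPM in wild type. Socs3, a feedback inhibitor induced by STAT3, was at 8.77, 12.8 and 12.5 TPM in knockout libraries 4, 5 and 6, against 4.98, 7.39 and 4.67 TPM in wild-type libraries 1, 2 and 3. Its groups did not overlap (log2 fold change 0.96, standard error 0.24, edgeR adjusted p = 0.317), and DESeq2 called it with an adjusted p of 0.0331. Stat5a was at 0.40 and Il6ra, the interleukin 6 receptor chain, at 0.52, each without overlap between the groups in CPM. In TPM Il6ra overlapped, with knockout 4 at 1.99 and wild type 3 at 2.01. Without knockout 5 and 6 the log2 fold change of Il6ra was 0.20.

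The list of enzymes and receptors around leukotrienes, histamine and lysophosphatidic acid had 11 of 12 genes tested, 7 positive and 4 negative, with a median of 0.11 and a range from -0.21 to 0.28. That median turned to -0.21 without knockout 4 and was 0.28 without knockout 5 and 6, so its direction rested on knockout 4. Hnmt, which inactivates histamine, was at -0.21, Lpar1 at 0.23 and Plpp3, a lipid phosphatase, at 0.21, or at 0.06 without knockout 5 and 6. In the list of Gq and G12/13 coupling 8 of 12 genes were positive, with a median of 0.09, or 0.02 without knockout 5 and 6 or without wild type 1. Itpr3, an intracellular calcium release channel, was at 0.78 with a standard error of 0.25 (edgeR adjusted p = 0.44), Gnaq at -0.23 and Arhgef12 at 0.21. Without knockout 5 and 6 these were at 0.43, -0.39 and 0.03, and without knockout 4 Gnaq was at -0.08 and Arhgef12 at 0.36.

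Of the other genes used to mark this neuron class, 4 of 12 were positive and 8 negative, with a median of -0.11, or -0.03 without knockout 4. Nts, the neurotensin precursor, went against most of the others. It was at 93.2, 47.6 and 43.7 TPM in knockout libraries 4, 5 and 6, against 15.2, 12.95 and 21.5 TPM in wild-type libraries 1, 2 and 3, with no overlap (log2 fold change 2.08, standard error 0.34, edgeR adjusted p = 0.201; DESeq2 adjusted p = 1.21e-06). Htr1a, a serotonin receptor, was at -0.49 and Il4ra, the receptor chain for interleukins 4 and 13, at 0.49, both without overlap between the groups. Htr1f, another serotonin receptor of this class, was at 5.27 to 6.55 TPM in knockout and 4.70 to 7.35 TPM in wild type, with overlap.

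The list labelled other itch neuron genes is not limited to itch neurons, as it holds Mrgprb4. Of its 11 tested genes 3 were positive and 8 negative, with a median of -0.40, or -0.65 without knockout 4. Over all genes 49.8% were negative. Of the 11, 6 did not overlap over the 5 samples, all of them lower in knockout, against 15.7% of all genes. Mrgprb4, a Mas-related receptor of neurons that respond to stroking, was at 7.78, 8.43 and 7.28 TPM in knockout libraries 4, 5 and 6, against 28.2, 14.9 and 28.3 TPM in wild-type libraries 1, 2 and 3. The fitted log2 difference of Mrgprb4 was -1.59 ± 0.30 (standard error; edgeR adjusted p = 0.235). Lpar3, another lysophosphatidic acid receptor, was at -1.09 and Agtr1a, an angiotensin receptor, at -1.04, with edgeR adjusted p of 0.236 and 0.272. These 3 were named because their edgeR p was the smallest of the list, and none of the 11 passed in edgeR. In DESeq2 on the same samples all 3 passed, with adjusted p of 0.00029, 0.000345 and 0.00634. DESeq2 called 0.985% of 25068 genes.

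**Figure D4:**
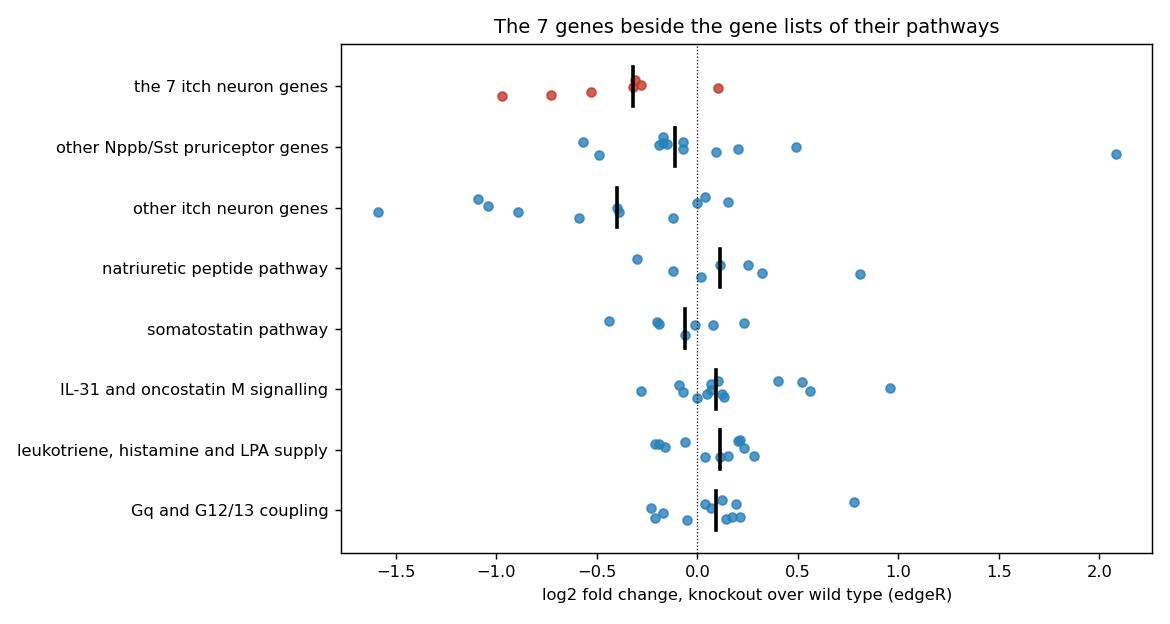
Log2 fold change of knockout over wild type (x axis, edgeR) for the 7 itch neuron genes (red) and for the tested genes of 7 lists (blue), 1 point per gene, with black bars at the medians. The 7 genes have a median of -0.32 and the list labelled other itch neuron genes -0.40. The other genes of the Nppb/Sst neuron class have a median of -0.11, with values from -0.57 to 2.08. The medians of the signalling lists lie between -0.06 and 0.11.

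Markers of other cells were set beside these values. The 10 pan-neuronal markers lay between -0.14 and 0.23, with a median of 0.06, and the 10 markers of small-diameter nociceptors between -0.34 and 0.33, with a median of -0.17. The nociceptor sum was 4292 to 4522 TPM in knockout and 4427 to 4816 TPM in wild type. All 10 Schwann cell markers were positive, with a median of 0.33, and 6 of 6 endothelial markers, with a median of 0.34. Of all genes tested, 49.8% were negative. The endothelial sum was 61.5 to 63.8 TPM in knockout and 46.7 to 51.9 TPM in wild type. Of 6 mast cell markers 5 were negative, with a median of -0.79, and their sum was 54.2 to 61.0 TPM in knockout and 53.7 to 72.0 TPM in wild type, most of it Kit, which neurons also express. Fibroblast and macrophage markers had medians of -0.13 and -0.06, summing to 2154 to 2908 and 31.2 to 40.7 TPM in knockout and to 2356 to 3210 and 33.9 to 44.4 TPM in wild type. The fibroblast median was 0.17 and the macrophage median 0.09 without knockout 5 and 6, and the pan-neuronal median was -0.07. The mast cell median was -1.23 without knockout 4 and -0.44 without knockout 5 and 6. Satellite glia markers had a median of 0.23, or 0.14 without knockout 4, and their sum was 5635 to 6170 TPM in knockout and 5107 to 5560 TPM in wild type. Spinal cord markers summed to at most 0.880 TPM in knockout and 1.26 TPM in wild type. Genes of the axon injury response were positive in 10 of 10 cases, with a median of 1.50. In edgeR 5 of them passed, Atf3, Sprr1a, Gal, Npy and Ecel1, where 0.0952% of all genes passed. No marker of these lists was at 0 in all 6 libraries. The injury sum was 915 to 968 TPM in knockout and 412 to 436 TPM in wild type. The part of these other cells and of the injury response in the levels of the 7 genes was not tested.

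Genes with the most similar pattern over the 5 samples were ranked by the root mean square difference of log2(CPM + 0.5), centred on each gene's mean, among 13746 protein-coding genes with a mean of at least 1 CPM. For Nppb these were Cdkl1, a cyclin-dependent kinase-like gene, with a difference of 0.036, Mroh2b with 0.079 and Nxpe2 with 0.089. Cdkl1 was at 3.44, 2.98 and 2.85 CPM in knockout libraries 4, 5 and 6, against 7.52, 4.72 and 6.46 CPM in wild-type libraries 1, 2 and 3, the same order of libraries as Nppb within wild type. For Sst they were Lypd1 with 0.074, Cpn1 with 0.104 and Hpcal4, a neuronal calcium sensor, with 0.118. Lypd1, like Sst, was highest in wild type 3, at 10.3 CPM, while the other libraries lay between 3.71 and 5.16 CPM, and its log2 fold change of -0.55 was -0.06 without wild type 3.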

How the data were processed

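Total RNA from lumbar dorsal root ganglia of 6 mice was sequenced after a stranded mRNA library preparation, per the labels' protocols. Per the submitters' processing notes, Trimmomatic 0.38, STAR 2.6.0a and RSEM 1.3.0 were used with GRCm38. The sources used here give no annotation release or strand setting. Per the file headers the authors deposited, per library, gene lengths with expected counts, FPKM and TPM. Expected counts are RSEM estimates that are not normalized, the deposited TPM values sum to about 1000000 per library, and the deposited FPKM values entered no test. Symbols were matched for 35243 of 36793 identifiers through GENCODE names, and positions come from GENCODE on GRCm38.

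Expected counts were rounded, filtered with filterByExpr, and scaled by TMM. The main test was the two-sided quasi-likelihood test of edgeR 4.0.16 (R 4.3.3) for genotype, adjusted over all 16810 genes at 0.05. Libraries 5 and 6 were summed for the test and averaged for means and SDs. Printed CPM are on the TMM scale of the 6 libraries. Standard errors were derived from the F statistic of that test. Labels number the mice, but 5 and 6 agreed within sampling noise, so p-values rest on 3 and 2 samples. DESeq2 1.42.0, limma 3.58.1, other normalizations, filters and omitted samples were alternatives, and the procedure was tested on simulated data.

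The 7 genes and all lists were chosen with earlier results of these data known. Named beside the 7 are, per pathway list, the 3 genes with the smallest p where none passed, and 3 genes per peptide with the most similar pattern. Npr1, Il6st and Il31 are named as receptors or ligands of members, and Cort, Sstr5, Htr1f, Kit and the called injury genes were named after their values were seen.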

Additional observations from a re-analysis of the deposited data

How the results depend on the processing

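No paired analysis was possible because no mouse number occurs in both genotypes. The count of 16 genes past the threshold became 144 with the 6 libraries counted separately, 81 with no filter on low counts, 247 in DESeq2, 27 in limma-voom, 30 at a false discovery rate of 0.10, and 854 in DESeq2 on 6 libraries, an alternative chosen after seeing the data. Leaving out 1 sample gave 7 to 14 genes: 8 without wild type 2, 10 without wild type 3 and 7 without knockout 4. The count of 0 members past the threshold became 1 in DESeq2 (Nppb, log2 fold change -0.96, adjusted p = 0.0215) and 2 in DESeq2 on 6 libraries (Nppb at -1.01, adjusted p = 0.000447, and Cysltr2 at -0.75, adjusted p = 0.0325), and stayed 0 in the others. The cause was not tested, except that counting libraries 5 and 6 separately adds a sample and that the looser rate adds genes. Over all alternatives the adjusted p of Nppb ran up to 0.856. With 1 sample left out, Nppb ran from -1.13 to -0.83, Cysltr2 from -0.93 to -0.56, Il31ra from -0.34 to -0.23, Osmr from -0.35 to -0.20, Sst from -0.79 to -0.08, Hrh1 from -0.12 to 0.29 (0.32 without knockout 5 and 6) and Lpar5 from -0.90 to 0.06. Furin ran from -0.10 to 0.53. Where a sample was left out of the knockout, the remaining one is taken to have the spread of the wild-type samples. Counts were lowest for Sst and Hrh1, with as few as 47 and 71 in a library. Their wild-type coefficients of variation, 48.8% and 25.25%, were above the 10.9% and 10.5% from counting alone.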

Other observations

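RSEM also gives a gene length weighted by the isoforms it assigned. For Osmr, with 6 transcripts in the table, it was 4970, 5082 and 5179 bases in knockout libraries 4, 5 and 6, against 5020, 5340 and 5115 bases in wild-type libraries 1, 2 and 3. For Hrh1, with 5 transcripts, it was 2509, 2869 and 2782 bases in the knockout libraries, against 2613, 2782 and 2813 bases in the wild-type libraries. The groups overlapped for both genes. Lpar5 was at 1393 bases in 4 of 6 libraries, at 1407 in knockout 4 and at 1259 in knockout 6. Nppb, Sst and Il31ra have 1 transcript each in the table, so their lengths were the same in every library.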
